A study of Mus musculus with 15 samples.

Results

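The microRNA miR-203 was followed replicate by replicate through 2 mouse islet tumour cell lines. It was measured by 1 assay, mmu-miR-203, in 1 well of a TaqMan low density array, of 584 miRNA assays in all, and no assay of the opposite arm was among them. miR-203 was chosen by its measured levels, its differences between the lines and after cytokines in earlier results of these data, so those contrasts are described without a p-value. The study compared αTC1-6, a glucagon-producing line derived from a mouse glucagonoma, with βTC1, an insulin-producing line derived from a mouse insulinoma, both cultured at passages 20 to 40. αTC1-6 cells were left untreated or exposed for 24 or 48 h to a mixture of 50 IU/ml IL-1β with 1000 IU/ml each of IFN-γ and TNF-α. βTC1 cells were measured untreated at 24 h only, so no cytokine-treated βTC1 sample entered any comparison. Each of the 5 conditions had 3 replicates, which the methods call independent, for 15 samples of total RNA. Each line is a single tumour-derived line, so a difference between them is one between 2 lines. In RNA from whole cultures, a higher level in every cell and a larger share of cells with a high level cannot be told apart.

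A miRNA is cut from a hairpin precursor and, loaded into an Argonaute protein, represses messenger RNAs that pair with its seed, the bases near its 5′ end. miR-203 is best known from skin, where it is abundant in the differentiating layers of the epidermis and represses p63, a transcription factor that keeps epithelial progenitors dividing. IL-1β, IFN-γ and TNF-α are inflammatory cytokines released by immune cells that infiltrate the islet in type 1 diabetes.

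The sequences below show what the assay name stands for and which bases would select targets. The assay carries no arm suffix, and under the older naming that is read here as the 3p arm. In each mature sequence the capitals mark the seed, bases 2 to 8. In the hairpin they mark the 3p arm. All sequences are from RefSeq on GRCm38.p6.
miR-203-3p: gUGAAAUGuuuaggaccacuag
miR-203-5p: aGUGGUUCuugacaguucaaca
mir-203 hairpin: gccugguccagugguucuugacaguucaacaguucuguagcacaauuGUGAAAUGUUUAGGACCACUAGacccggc
The hairpin lies at chr12:112130880-112130955 on the plus strand, and its gene, Mir203, sits between the protein-coding genes Aspg and Kif26a. A second annotated hairpin, mir-203b, overlaps it on the opposite strand. The mature 3p arm lies at chr12:112130927-112130948. Of 1679 mature mouse miRNA names in the RefSeq table, 0 others shared bases 2 to 7 with miR-203-3p. Rat miRNAs, which some assays on the cards target, were not searched.

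The arrays give a threshold cycle, Ct, which falls by 1 for each doubling of template. The deposited values are ΔCt, the Ct of an assay minus that of miR-26a in the same sample, so −ΔCt is a log2 level relative to miR-26a. Between 214 and 337 miRNA assays of card A and between 174 and 191 of card B had a Ct in a sample. miR-203 had a Ct in all 15 samples, from 20.9 to 24.9 cycles, and these were the same within 0.001 cycles in the normalised and non-normalised tables in 15 of 15 samples. The islet miRNA miR-375 had a Ct in 15 of 15 samples, between 13.42 and 15.98 cycles. Of 16 markers of islet, squamous, blood, muscle and liver cells listed, 15 had an assay. The 5 islet markers with an assay had a Ct in 13 to 15 samples. The other 10 had one in 4 to 15 samples. The lowest was at 21.4 cycles for the muscle miRNA miR-133b, with a Ct in 4 samples, all αTC1-6 at 48 h. The muscle miRNAs miR-206, miR-133a and miR-1 had one in 15, 13 and 5 samples, and the liver miRNA miR-122 in 8. These counts used the normalised values, in which 60 to 86 wells of card A per 24 h sample lacked a Ct that the non-normalised values gave. The squamous miRNA miR-205 had a Ct in 4 of 15 samples, and the blood miRNAs miR-142-3p and miR-223 in 15 of 15, at no less than 29.9 and 30.9 cycles. Of the other blood miRNAs, miR-142-5p had a Ct in 4 of 15 samples and miR-451 in 11 of 15. The part of these signals in the miR-203 values was not tested. An uneven spread of decimals touched the assay: 11 of its 15 Ct values ended in 0.9 or above, against 3460 of 9983 Ct values (34.7%) over all wells of the non-normalised table. The cause of that excess was not tested.

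miR-203 was lowest in untreated αTC1-6, higher in αTC1-6 after cytokines and highest in βTC1. In untreated αTC1-6 at 24 h, ΔCt was 5.96, 7.09 and 7.26 in replicates 1, 2 and 3, a mean of 6.77 ± 0.708 (SD, n = 3). In untreated αTC1-6 at 48 h, ΔCt was 5.97, 6.68 and 6.98, a mean of 6.55 ± 0.522 (SD, n = 3). Both sets of untreated αTC1-6 samples therefore covered nearly the same range. After cytokines, ΔCt was 4.03, 5.02 and 4.80 at 24 h (mean 4.62 ± 0.520, SD, n = 3). At 48 h of cytokines it was 3.26, 4.25 and 4.52 (mean 4.01 ± 0.662, SD, n = 3). Each of the 6 treated samples had a lower ΔCt, and thus more miR-203, than each of the untreated αTC1-6 samples. In βTC1, ΔCt was 2.56, 3.22 and 3.41, a mean of 3.06 ± 0.446 (SD, n = 3). Expressed as a relative quantity, miR-203 averaged 0.998% of the miR-26a level in untreated αTC1-6 at 24 h, 4.27% after 24 h of cytokines and 12.4% in βTC1. At 48 h the means were 1.12% without and 6.68% with cytokines.

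**Figure D1:**
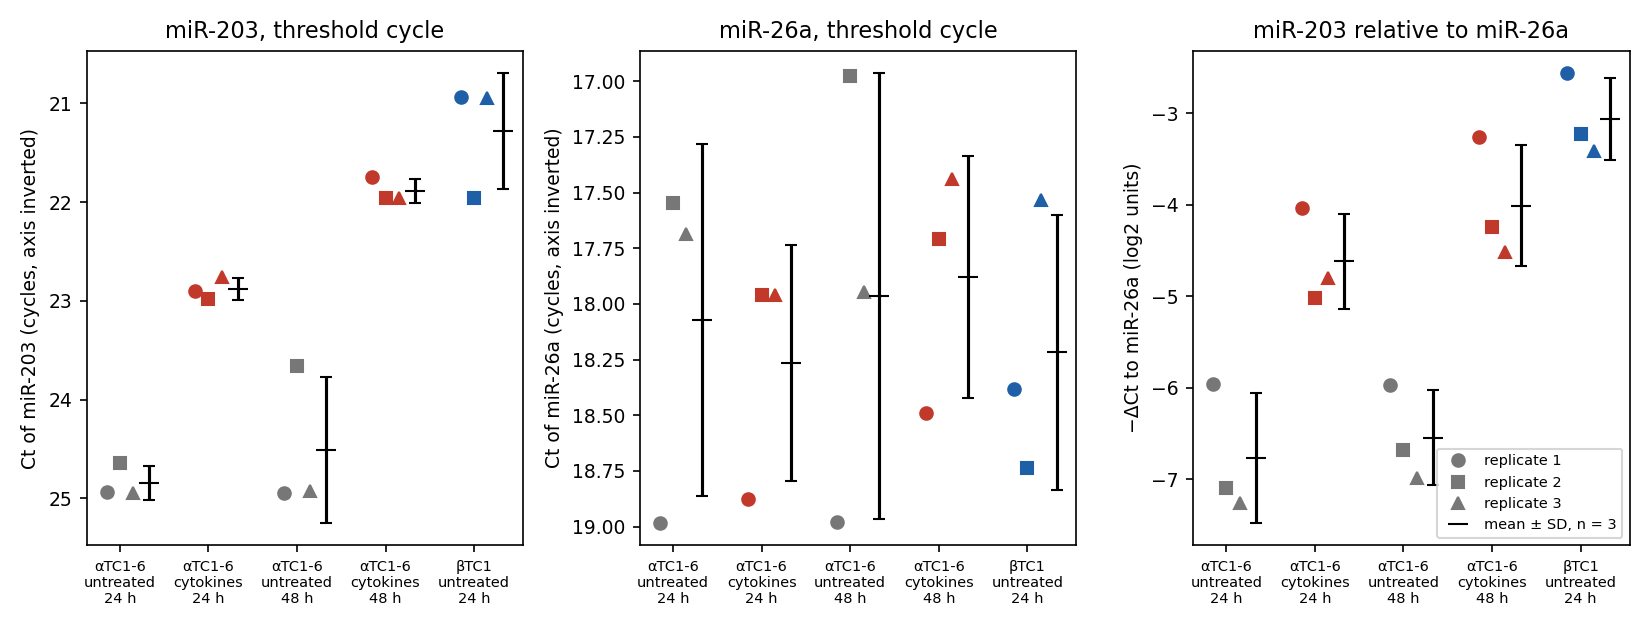
Ct of miR-203 and of miR-26a (cycles, inverted axes) and −ΔCt of miR-203 to miR-26a (log2 units) in the 15 samples of the 5 conditions; symbols are replicates, black bars mean ± SD. On the −ΔCt scale the 3 βTC1 samples lie between −3.41 and −2.56, and untreated αTC1-6 at 24 h between −7.26 and −5.96.

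Ordered by mean −ΔCt, βTC1 came first, then αTC1-6 after 48 h and 24 h of cytokines, then untreated αTC1-6 at 48 h and 24 h. Only the step from 24 h of cytokines down to untreated αTC1-6 at 48 h, a difference of 1.93 on the log2 scale, separated neighbouring groups without overlap. The other neighbours in that order overlapped: βTC1 with αTC1-6 after 48 h of cytokines, both treated groups with each other, and both untreated αTC1-6 groups with each other. The spread within groups differed between miR-203 and its reference. Replicate 1 had the highest miR-203 level in 5 of 5 conditions on the miR-26a scale. The same held in 5 of 5 when U6 and small nucleolar RNAs served as the reference. It held in 2 of 5 without normalisation and in 2 of 5 against the median Ct of assays detected in all samples. The Ct of miR-203 itself had an SD of 0.174 cycles in untreated αTC1-6 at 24 h, where that of miR-26a had an SD of 0.792 cycles. After cytokines the SDs were 0.114 and 0.529 cycles at 24 h and 0.120 and 0.544 at 48 h, in that order. In untreated αTC1-6 at 48 h (0.738 and 1.00 cycles) and in βTC1 (0.585 and 0.617 cycles) they were closer. Decimals of 0.9 or above stood in 11 of 15 Ct values of miR-203 and in 6 of 15 of miR-26a. The part of such decimals in these SDs was not tested.

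The first contrast asked how the lines differ at steady state. βTC1 held more miR-203 than untreated αTC1-6 in each same-numbered pair, by 3.40, 3.87 and 3.85 on the log2 scale. The mean log2 difference was 3.71 (SE 0.555, limma, n = 3 and 3), or 13.1-fold. The groups did not overlap, as was so in the same direction for 28.5% of the 480 assays tested in that contrast. Among the 326 assays with a Ct in all 6 samples, 33 had a larger difference in favour of βTC1, and the median over all 480 tested was 0.52.

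The cytokine contrasts asked how αTC1-6 responds to an inflammatory stimulus. At 24 h the treated samples exceeded the untreated ones of the same number by 1.93, 2.07 and 2.46 on the log2 scale. The mean difference was 2.15 (SE 0.521, limma, n = 3 and 3), or 4.45-fold. Treated and untreated samples did not overlap; among 445 assays tested, 6.07% lay wholly higher after cytokines. At 48 h the same-numbered differences were 2.71, 2.44 and 2.46, with a mean log2 difference of 2.54 (SE 0.499, limma, n = 3 and 3), or 5.80-fold. Again there was no overlap, which at 48 h held in that direction for 2.06% of the 534 assays tested. With the replicate number as a block the SE was 0.201 at 24 h and 0.182 at 48 h.

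Among all assays tested, 28 of 445 at 24 h and 37 of 534 at 48 h had a larger difference in favour of cytokines than miR-203. Among those with a Ct in all 6 samples, 11 of 329 did at 24 h and 3 of 410 at 48 h. Over all assays tested the median log2 difference was −0.15 at 24 h and −0.51 at 48 h, so the miR-26a scale placed the typical assay lower after cytokines. Relative to that median, the difference of miR-203 was 2.31 at 24 h and 3.05 at 48 h. The line contrast and the 24 h cytokine contrast share the 3 untreated αTC1-6 samples at 24 h, so their values are given side by side and not as support for each other.

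**Figure D2:**
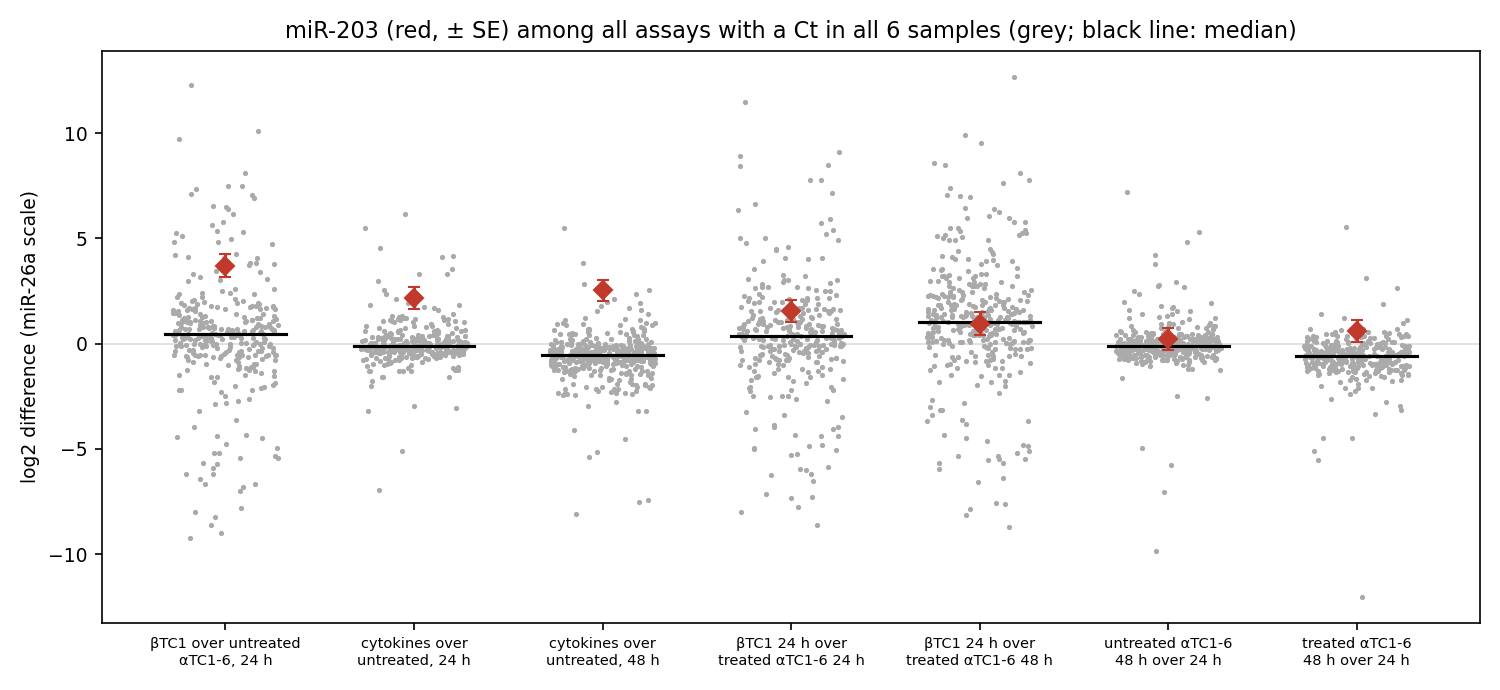
Log2 difference (miR-26a scale) of miR-203 (red diamonds, ± SE of limma) among all assays with a Ct in all 6 samples of each of 7 contrasts (grey points; black lines, their medians). miR-203 lies at 2.54 among the 410 assays of the 48 h cytokine contrast, with 3 above it, and at 0.95 in the contrast of βTC1 with αTC1-6 after 48 h of cytokines, whose median is 1.05.

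The level reached after cytokines was then set against that of βTC1. At 24 h, βTC1 lay above treated αTC1-6 in each same-numbered pair, by 1.47, 1.80 and 1.39 on the log2 scale, a mean of 1.55 (SE 0.519, limma), or 2.93-fold, without overlap, which held in that direction for 29.5% of 474 assays tested. After 48 h of cytokines the distance was 0.70, 1.03 and 1.11, a mean log2 difference of 0.95 (SE 0.544, limma), or 1.93-fold. These groups overlapped, because replicate 1 of the treated samples, at a ΔCt of 3.26, held more miR-203 than replicate 3 of βTC1, at 3.41. That last comparison sets 48 h against 24 h in culture, so line, treatment and time cannot be told apart in it.

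How near the treated αTC1-6 samples came to βTC1 varied with the reference. Relative to the median Ct of the assays detected in all samples, the mean log2 difference between βTC1 and αTC1-6 after 48 h of cytokines was 0.0044 (SE 0.376). Without normalisation it was 0.61, and relative to U6 and the small nucleolar RNAs of card A 0.68. The cytokine differences themselves ranged from 1.96 to 2.31 at 24 h and from 2.54 to 2.97 at 48 h over these 4 references. The difference between the lines ranged from 3.41 to 4.18.

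**Figure D3:**
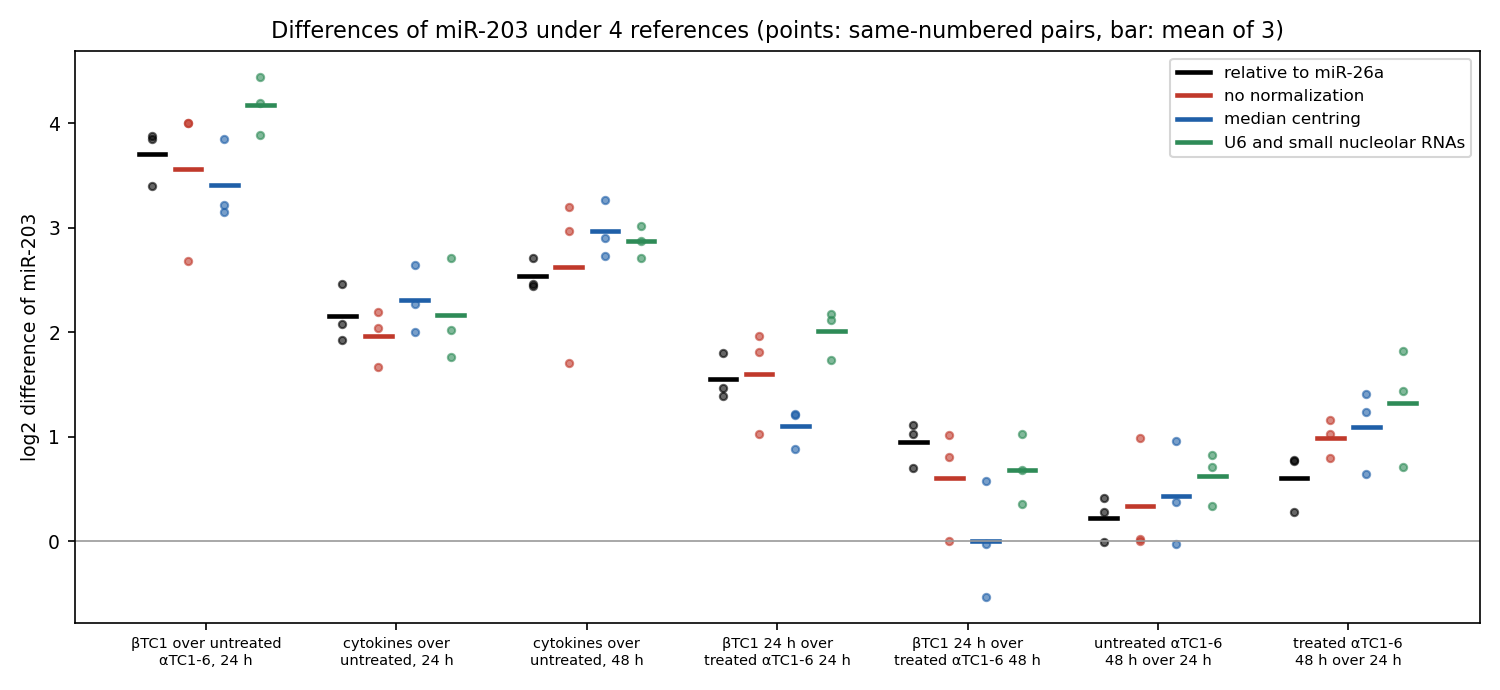
Log2 difference of miR-203 in 7 contrasts under 4 references (colours); points are same-numbered pairs of samples and bars their mean (n = 3). The cytokine and line differences lie above 0 under every reference, and the distance from βTC1 to αTC1-6 after 48 h of cytokines runs from 0.0044 to 0.95.

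Neither contrast between times was used to choose miR-203, so both were tested. Their samples also entered the contrasts used for that choice, so the tests are not independent of it. Without cytokines, miR-203 at 48 h differed from 24 h by −0.0096, 0.41 and 0.28 in the same-numbered pairs. The mean log2 difference was 0.23 (SE 0.519), which did not pass the test (limma, Benjamini-Hochberg adjusted p = 0.919; two-sided exact permutation test, p = 0.6). With cytokines, the pairs differed by 0.77, 0.77 and 0.28, a mean log2 difference of 0.61 (SE 0.525), or 1.52-fold. That difference did not pass either (limma, Benjamini-Hochberg adjusted p = 0.772; two-sided exact permutation test, p = 0.3). With 3 samples against 3 the two-sided exact test cannot give a p below 0.1, and these results do not show that the levels were alike. Under the other 3 references the treated samples at 48 h all lay above those at 24 h, by a mean of 0.99 without normalisation, 1.10 after median centring and 1.33 relative to U6 and small nucleolar RNAs, with adjusted p of 0.0969, 0.113 and 0.429 (limma). On the miR-26a scale 9.07% of the 496 assays tested lay wholly higher at 48 h, and miR-203 was not among them.

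Of all assays, 29 of 489 tested passed between the untreated times (5.93%), 27 of them higher at 48 h, and 34 of 496 between the treated times (6.85%), all 34 higher. Those counts moved with a property of the tables that did not touch miR-203. In the normalised table of card A, between 60 and 86 wells of each 24 h sample were listed as undetermined although the non-normalised table gave a Ct, against at most 1 in each 48 h sample. With Ct values taken from the non-normalised table, still relative to miR-26a, only 2 and 1 assays passed. Both of the 2 between the untreated times were then lower at 48 h. With the Ct values of the normalised table and no reference subtracted, 25 and 33 passed. Time and that difference between the tables cannot be told apart in the normalised values. The counts between the lines at 24 h moved as well. With the normalised values 85 assays passed as higher in βTC1 and 57 as lower, and with the non-normalised Ct values 55 and 46.

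The assays with the pattern most like that of miR-203 were sought among 277 others with a Ct in all 15 samples. By Pearson r of −ΔCt over the 15 samples, the nearest were miR-125b-5p (r = 0.84), miR-145 (r = 0.82), miR-193b (r = 0.81), miR-222 (r = 0.77) and miR-466c-5p (r = 0.71). These values share the samples and the reference, and without normalisation they were 0.83, 0.79, 0.58, 0.79 and 0.69 in that order. By r over the 5 condition means the nearest were miR-136* and miR-680 (both r = 0.98), miR-145 (r = 0.90), miR-125b-5p (r = 0.89) and the rat assay miR-463 (r = 0.87). Thus 2 assays, miR-125b-5p and miR-145, were in both lists. Over the 15 samples miR-136* and miR-680 had an r of only 0.43 and 0.39. Their log2 differences between βTC1 and untreated αTC1-6 at 24 h were 1.39 (SE 1.80) and 0.68 (SE 0.578), in that order.

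The most similar over samples, miR-125b-5p, a miRNA conserved across animals with roles in lineage decisions, is printed with its seed in capitals to set beside that of miR-203-3p, with which it shares no seed.
miR-125b-5p: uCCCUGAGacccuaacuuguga
Its ΔCt was 10.97, 10.41 and 10.97 in untreated αTC1-6 at 24 h and 9.10, 9.48 and 10.01 after 24 h of cytokines. In βTC1 it was 6.57, 6.72 and 7.79. Because these assays were picked for their likeness to miR-203 over the same samples, their differences are descriptions without a p-value. Between the lines the log2 difference of miR-125b-5p was 3.76 (SE 0.520). After cytokines it was 1.25 (SE 0.397) at 24 h and 1.43 (SE 0.423) at 48 h. Treated and untreated samples did not overlap at either time, as was so in that direction for 6.07% and 2.06% of all assays tested. The log2 differences of miR-203 in the same contrasts were 3.71, 2.15 and 2.54. miR-222, which with miR-221 represses the cell cycle inhibitor p27, had a log2 difference of 10.1 between the lines (SE 0.626), higher in βTC1. miR-145, known from smooth muscle, had one of 1.90 (SE 0.505) in the same direction.

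**Figure D4:**
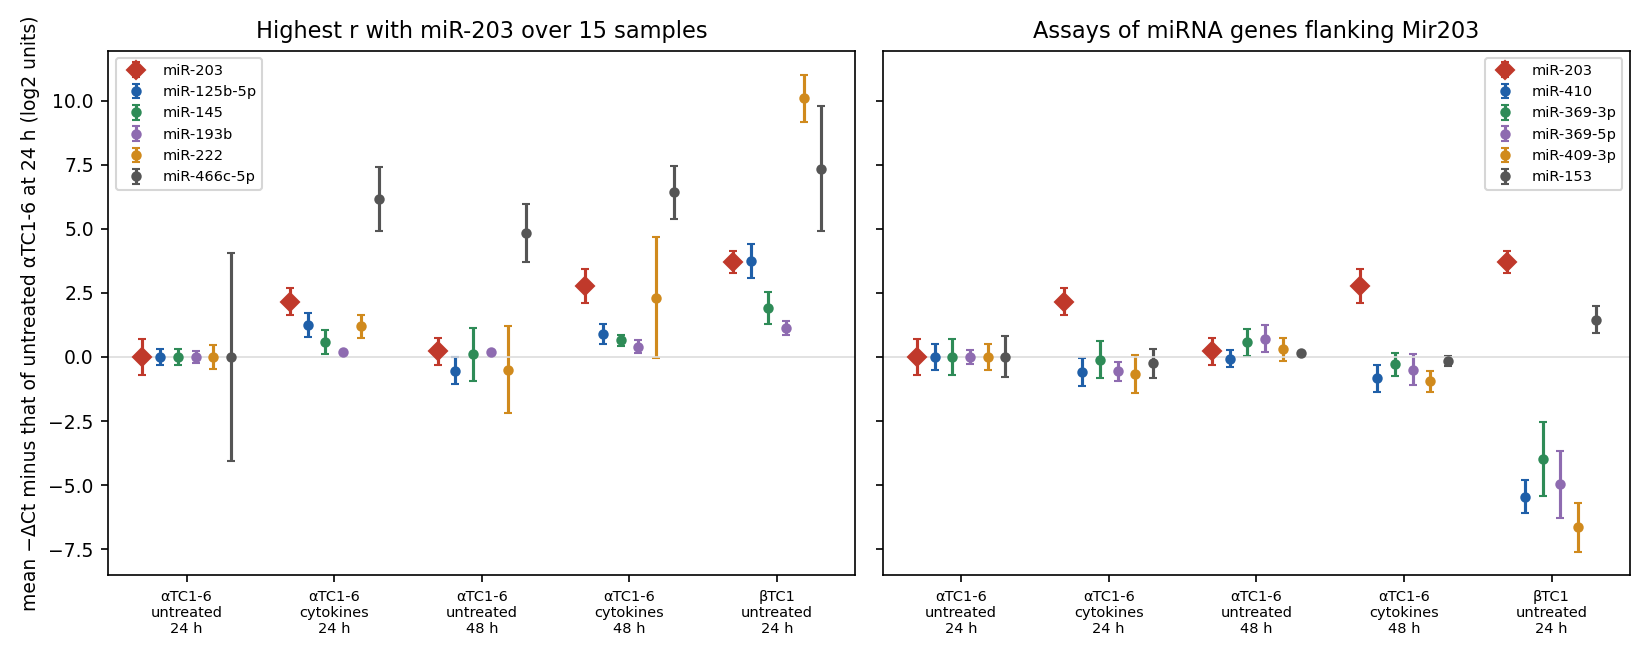
Mean −ΔCt minus that of untreated αTC1-6 at 24 h (log2 units; bars, SD, n = 3) for miR-203 and the 5 assays most correlated with it over 15 samples (left) or assays of miRNA genes on either side of Mir203 (right). In βTC1 miR-203 and miR-125b-5p lie at 3.71 and 3.76, while miR-410 and miR-409-3p lie at −5.45 and −6.65.

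Cytokine-linked miRNAs were compared next, a list of 8 assays with known ties to inflammation or stress. At 24 h of cytokines 0 of 7 tested passed (limma), with 3 at an unadjusted p under 0.05 as for 4.49% of all assays, and the list's median log2 difference was 1.05 beside −0.15 for all assays. In that contrast 1 of 445 assays passed in all (0.225%). With 1 fit over all 15 samples 1 of the 7 passed as higher at 24 h, the only assay to do so. At 48 h 1 of 7 passed and was higher, with a list median of 1.13 beside −0.51 for all assays, where 3 of 534 passed in that direction (0.562%) and 11.2% had an unadjusted p under 0.05. The assay that passed was miR-146a, induced by NF-κB and known to dampen that pathway through Traf6 and Irak1. Its ΔCt was 3.99, 3.98 and 4.03 in untreated αTC1-6 at 48 h and 0.28, 0.29 and −0.035 after cytokines. Treated and untreated samples were far apart, and miR-146a rose by 3.82 on the log2 scale (SE 0.268, adjusted p = 0.00458, limma). Without normalisation its adjusted p was 0.250. With the replicate number as a block it was 0.0740, and 0 assays passed at either time, against 1 and 3 without it.

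In βTC1 the ΔCt of miR-146a was 4.58, 5.22 and 6.00, each a lower level than in any untreated αTC1-6 sample at 24 h, with a log2 difference of −1.51 (SE 0.609, adjusted p = 0.1002, limma). miR-34a, a target of p53, differed by 1.05 (SE 0.333, adjusted p = 0.650, limma) at 24 h and 1.13 (SE 0.409, adjusted p = 0.488, limma) at 48 h of cytokines. Its treated samples lay wholly above the untreated ones, as for 6.07% of all assays tested at 24 h and 2.06% at 48 h. Between the lines miR-34a differed by 0.013 (SE 0.578). miR-155, which is induced in activated immune cells, had log2 differences of 1.30 and 1.18 after cytokines and −2.65 between the lines, of which none passed. Between the lines 1 of 7 tested members passed, miR-125b-5p, where 85 of 480 assays passed as higher in βTC1 (17.7%). miR-125b-5p was also the assay most like miR-203 over the same samples, so that count is a description. It was also among the 3 members with an unadjusted p under 0.05 (limma) at 24 h of cytokines. In both time contrasts 0 of 7 passed, and 0 had an unadjusted p under 0.05, where 8.79% of all assays did without and 13.1% with cytokines.

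Epithelial miRNAs formed the second list: the miR-200 family with miR-141 and miR-429, which repress the transcription factors Zeb1 and Zeb2, with miR-183 and miR-205. Of 7 assays, 4 could be tested between the lines, and 2 were higher in βTC1, where 17.7% of all assays tested passed in that direction. miR-183 was higher by 3.52 (SE 0.683, adjusted p = 0.0134, limma) with a Ct in 2 of 3 βTC1 samples, and did not pass with the replicate block (adjusted p = 0.0600). miR-200b had a Ct in 3 of 3 βTC1 samples and was listed as undetermined in the untreated αTC1-6 samples, but the non-normalised table gave it a Ct there and its log2 difference was then 1.84 (adjusted p = 0.570, limma). After cytokines 0 of 3 tested passed at 24 h and 0 of 6 at 48 h (limma), with 0 at an unadjusted p under 0.05 at either time. Few assays passed in either contrast (0.225% of all tested at 24 h and 0.562% at 48 h), and 4.49% and 11.2% had an unadjusted p under 0.05. The list's medians were 0.035 and 0.80, beside −0.15 and −0.51 for all assays.

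Over time 2 of 5 tested members were higher at 48 h without cytokines, miR-200a and miR-429, and 3 of 6 with them, miR-200a, miR-200b and miR-429. Of all assays 27 of 489 and 34 of 496 were higher in these contrasts. All 3 were listed as undetermined in 6 of 6 αTC1-6 samples at 24 h, in which the non-normalised table gave each a Ct between 24.0 and 30.0 cycles. With those Ct values 0 of these calls passed (limma). The Ct values of miR-203 were the same in both tables, so no such gap entered its values.

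Finally the miRNA genes on either side of Mir203 on chromosome 12 were examined. They were taken by gene order among those with an assay, and their distance from Mir203 was not measured. Mir410, Mir369, Mir409, Mir377 and Mir154, the 5 nearest before it with an assay, belong to the imprinted Dlk1-Dio3 miRNA cluster and had 8 assays. After it, only Mir153 had an assay. Between the lines 6 of 6 tested assays of the genes before Mir203 were lower in βTC1, with a median log2 difference of −6.05 beside 0.52 for all assays, where 57 of 480 passed as lower (11.9%). miR-410 had a Ct between 24.8 and 25.5 cycles in untreated αTC1-6 at 24 h and between 30.6 and 31.0 in βTC1. Its log2 difference was −5.45 (SE 0.546, adjusted p = 0.00045, limma), opposite in sign to the 3.71 of miR-203. miR-409-3p was at −6.65 in the same contrast (SE 0.640, adjusted p = 0.000392, limma). miR-409-5p was listed as undetermined in all 3 βTC1 samples, where the non-normalised values gave it a Ct between 32.6 and 36.2 cycles and a log2 difference of −7.71 (SE 1.29, adjusted p = 0.0132, limma).

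After cytokines 0 of 8 passed at 24 h and 0 of 8 at 48 h (limma), with 0 and 2 at an unadjusted p under 0.05 beside 4.49% and 11.2% of all assays. The medians were −0.58 and −0.82, beside −0.15 and −0.51 for all assays. In the time contrasts 0 of 8 passed, beside 5.93% of all assays without and 6.85% with cytokines, and 0 had an unadjusted p under 0.05, beside 8.79% and 13.1%. miR-153, from the gene on the other side, had log2 differences of 1.45 between the lines (βTC1 over αTC1-6), −0.24 at 24 h and −0.31 at 48 h of cytokines, and passed in none of the 3. The log2 difference after cytokines was above 0 for 1 of the 8 assays before Mir203 at 24 h and for 0 of 8 at 48 h.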

How the data were processed

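Total RNA was profiled by the authors with TaqMan assays on a pair of rodent low density cards, A and B (768 wells). The methods name StatMiner and limma with Benjamini-Hochberg adjustment. The deposited normalised table holds ΔCt relative to miR-26a, a log2 scale, with undetermined wells at a Ct of 40, and the relative quantity 2^-ΔCt, a ratio. A second deposited table holds Ct values without normalisation. A table of the authors' own fold changes was not used. No read depth exists; the number of arrays limits the precision.

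The Ct of miR-26a was added back to recover each Ct, and duplicate wells were averaged. Contrasts of 3 against 3 samples were fitted to −ΔCt over all assays with a Ct in at least 3 of the 6 samples (R 4.3.3, limma 3.58.1, lmFit and eBayes, two-sided, Benjamini-Hochberg within each card, threshold 0.05). The fit was tested on simulated data. Exact permutation tests used scipy 1.17.1, figures and sums Python 3.11.15. miR-203, the lists and the tests were chosen with earlier results of these data known. Named miRNAs were the list members, the markers and the 5 assays with the highest r over 15 samples or over 5 condition means. The alternatives were other references, the non-normalised table, filters, the treatment of undetermined wells, 1 fit over all samples and leaving out each replicate. The methods call the replicates independent, and the p-values measure the spread between them.

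Same-numbered samples were checked for pairing by the correlation of their deviations from the group means over 278 assays. In the cytokine contrasts every pair exceeded 0.1 (0.276, 0.360 and 0.476 at 24 h, and 0.335, 0.443 and 0.259 at 48 h). The numbers were therefore taken as pairing those samples. The main fits of the cytokine contrasts still left that pairing out, and their SEs and p-values are unpaired. With the replicate number as a block, 0 assays passed at either time of cytokines. In the other 3 contrasts checked, not every pair exceeded 0.1.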

Additional observations from a re-analysis of the deposited data

How the results depend on the processing

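Under other references and without any 1 replicate, miR-203 differences kept their direction between the lines and after 24 h and 48 h of cytokines. So did the difference from βTC1 to αTC1-6 treated for 24 h. The non-normalised table could not move these values, since its Ct values of miR-203 were the same. Nor could the replicate block, since each replicate number stood in both groups. In that order, the differences moved by at most 0.470, 0.406, 0.431 and 0.458. Each move was less than the pooled SD of the groups compared (0.592, 0.621, 0.596 and 0.484). For the filters, undetermined wells and 1 fit, miR-203 was followed in the time contrasts only. The distance from βTC1 to αTC1-6 after 48 h of cytokines moved to 0.0044 under median centring. Leaving out 1 replicate at a time gave 3.46 to 4.11 between the lines, 1.86 to 2.56 and 2.16 to 2.82 for cytokines at 24 h and 48 h, 1.30 to 1.84 and 0.69 to 1.32 for βTC1 over αTC1-6 treated for 24 h and 48 h, −0.064 to 0.63 for untreated time and 0.23 to 0.90 for treated time. The untreated time difference turned to −0.019 without replicate 3 of the 24 h samples and to −0.064 without replicate 1 of the 48 h samples. No alternative brought either time difference past the threshold, with adjusted p of 0.768 to 0.998 and 0.0969 to 0.993 (limma). Assays passing numbered 29 between untreated times and 34 between treated times. They fell to 2 and 1 with the Ct values of the non-normalised table, to 2 and 0 with undetermined wells as missing and to 1 and 0 with a Ct required in every sample. They ranged from 0 to 30 and from 0 to 31 without 1 replicate, with 0, 0 and 0 without untreated 48 h replicates 1, 2 and 3, and 0, 1 and 0 without the treated ones. The replicate block, added after the data were seen for the contrasts that were described only, left the differences as they were; the time differences stayed at 0.23 and 0.61 (adjusted p = 0.813 and 0.611) and the counts were 23 and 26.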
